A study of Sorghum bicolor with 8 samples.

Results

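Chromosome 5 of Sorghum bicolor carried 2436 of the 34129 genes in the deposited expression table. Its members were taken as the genes whose identifier begins with the code of that chromosome, and the deposited loci placed all of them on it. RNA came from prop roots, the aerial roots that leave the lower stem, of cultivar BRS330. The comparison set 4 libraries from plants in ambient CO2 (400 µmol per mol) beside 4 libraries from plants in elevated CO2 (800 µmol per mol). Every plant, in both groups, had 1.5 L of water a day up to day 60 after planting and 0.45 L a day in the 30 days after that, so no well-watered control entered the comparison. It is not stated in the labels whether each library stands for another plant. The table gives 1 level per gene and group as FPKM, a fragment count corrected for transcript length and library size, pooled by the authors over the libraries of the group. Levels below therefore carry no SD, read depth is unknown, and a change was called only where the authors' deposited table lists a q-value under 0.05. Roots are mixtures of cell types, and in such bulk samples fewer cells of a type cannot be told apart from less RNA per cell.

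Sorghum chromosomes hold most of their genes towards both ends, around a long repeat-rich and gene-poor stretch that contains the centromere. Chromosome 5 shares with chromosome 8 an ancient origin by duplication in the ancestor of the grasses, and it is known for many clustered disease resistance genes, which encode intracellular immune receptors and often lie in tandem arrays. Neither the table nor the reference list at hand pairs these identifiers with a gene name or product, so the genes below are described by position, level and neighbours. For the same reason the labelled tissue could not be checked against root marker genes.

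The chromosome was chosen by the share of its tested genes that the authors' q-values call, the highest among the 10 chromosomes, so those shares are a description and carry no test. Of its 778 tested genes, 95 fell under elevated CO2 (12.2%) and 29 rose (3.73%) in the authors' deposited table. Over all 16280 tested genes of the series, 9.04% fell and 2.42% rose, or 11.5% in either direction. The denominator behind these shares was unusual, as the authors tested 31.9% of the genes on chromosome 5 and between 38.3% and 52.9% of the genes on each other chromosome. Counted against all listed genes, tested or not, 5.09% of chromosome 5 was called in either direction. On that base it ranked 7 of 10, between 3.80% on chromosome 8 and 6.05% on chromosome 2.

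**Figure D1:**
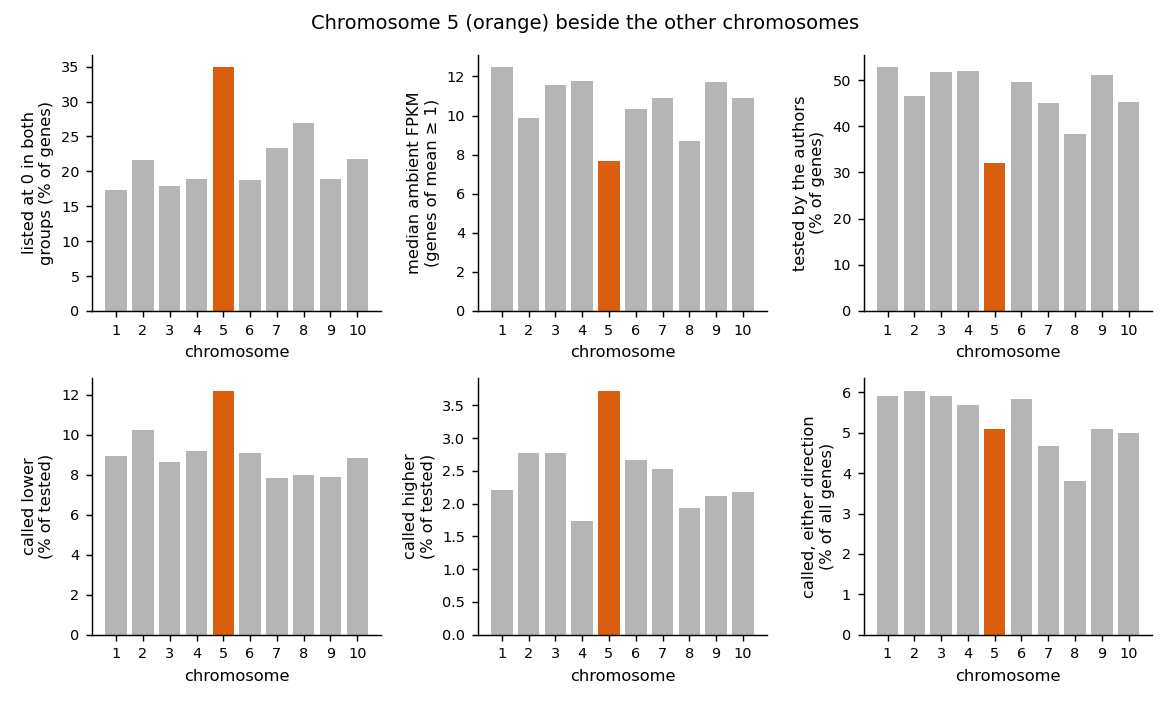
Bars give 6 quantities for each of the 10 chromosomes, with chromosome 5 in orange; each axis starts at 0 and names its unit. Chromosome 5 had the highest share of genes listed at 0 (35.0%), the lowest share tested (31.9%) and the highest shares of tested genes called, while its share of all genes called (5.09%) lay among those of the others.

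Many genes of chromosome 5 had no recorded expression in this tissue. Of its genes, 852 (35.0%) were listed at 0 FPKM in both CO2 groups, against 19.9% of the genes on the other 9 chromosomes together. The next highest shares were 26.9% on chromosome 8 and 23.3% on chromosome 7, the other gene-poor chromosomes. A mean of at least 1 FPKM over both groups, used here to call a gene expressed, was reached by 891 genes (36.6%), compared with 54.6% elsewhere. Expressed genes were also lower in level, with a median of 7.69 FPKM in the ambient and 7.21 FPKM in the elevated group. The corresponding medians on the other chromosomes were 11.1 and 10.6 FPKM, and on chromosome 8 they were 8.68 and 8.52 FPKM. Thus 7.14% of all genes supplied 3.40% of the summed ambient FPKM.

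**Figure D2:**
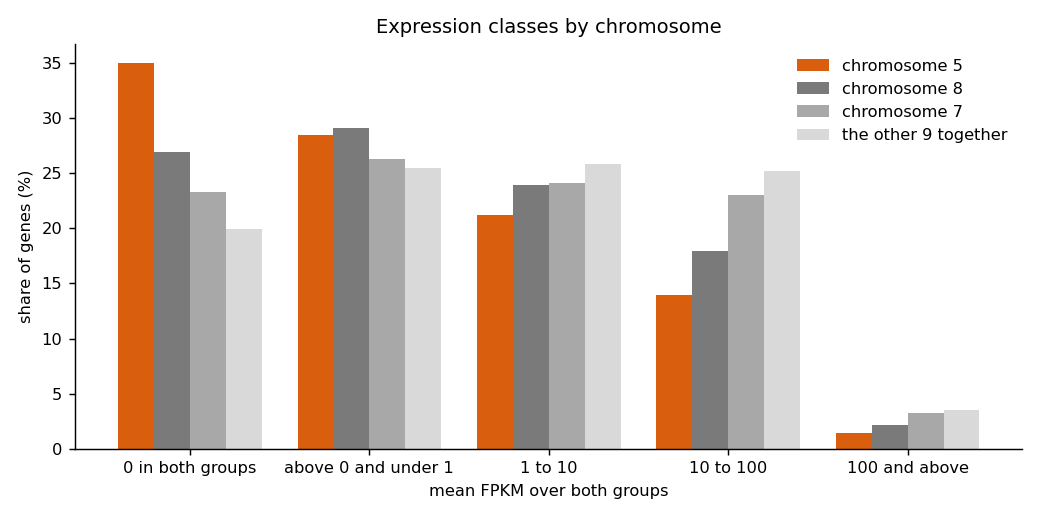
Bars give the share of genes (in percent) in 5 classes of mean FPKM for chromosome 5, chromosome 8, chromosome 7 and the other 9 chromosomes together. Chromosome 5 held a smaller share than the others in each class from 1 FPKM upwards, 13.9% against 25.2% in the class from 10 to 100 FPKM.

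Only 35 genes of the chromosome (1.44%) had a mean of 100 FPKM or more, against 3.49% elsewhere. The most abundant transcript, from a locus at 71599141 to 71600181 near the right end, was at 3279 FPKM in the ambient and 3470 FPKM in the elevated group and did not pass the authors' test (q = 0.975). This gene alone made up 14.8% of the summed ambient FPKM of the chromosome, and the 10 highest genes together made up 29.03%. The second, at 15112038 to 15113474, had 559 FPKM in the ambient and 674 FPKM in the elevated group (q = 0.683). A gene at 59440993 to 59448226 was listed at 519 FPKM in the ambient and 307 FPKM in the elevated group, a difference that did not pass either (q = 0.312). The 3 most abundant genes were thus all uncalled. The next, at 5565095 to 5567379, stood at 415 and 406 FPKM (q = 0.987). A gene at 68196971 to 68199030 came nearer to the threshold, with 464 FPKM in the ambient and 277 FPKM in the elevated group (q = 0.0662). Of the 4 that follow in mean level and were not called, those at 4770079 to 4771218 (236 and 327 FPKM) and at 69617790 to 69620179 (256 and 286 FPKM) had the higher value under elevated CO2. Those at 40185843 to 40188679 (282 and 221 FPKM) and at 61041784 to 61045001 (273 and 217 FPKM) had the lower value there. Of the 10 most abundant genes 1 was called, at 3876056 to 3877378, and it rose 2.03-fold, from 156 to 316 FPKM (q = 0.0260).

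Summed over the chromosome, FPKM was 22181 in ambient and 20604 in elevated CO2, a ratio of 0.929. Without the most abundant gene the ratio was 0.907, and on the other chromosomes together it was 0.887. The difference of a single gene is given below as log2((elevated + 1)/(ambient + 1)), in FPKM, which understates the differences of low genes. On this scale the expressed genes of chromosome 5 had a median of 0.01 (quartiles -0.26 and 0.22), beside a median of -0.03 (quartiles -0.27 and 0.18) on the other chromosomes. The lower value lay in the elevated group for 433 of the 891 expressed genes (48.6%), and for 53.6% of those elsewhere. On chromosome 8 the share was 48.5% and the median 0.01. The middle of the distribution thus stood close to 0 on a chromosome where falls made up 76.6% of the calls. On the other chromosomes together falls made up 79.1% of the calls, so that share was not particular to chromosome 5.

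Falls on chromosome 5 had a median of -1.28 on the log2 scale with the pseudocount (quartiles -1.64 and -1.04), and 76 of 95 reached at least 1 in size. Elsewhere the median of the called falls was -1.17, and 66.7% reached that size. The genes that fell had a median of 12.6 FPKM in the ambient and 4.30 FPKM in the elevated group, lower than the 20.8 and 8.23 FPKM of the falls on the other chromosomes. Rises had quartiles of 0.80 and 1.13 on that scale, and median levels of 6.50 FPKM in the ambient and 13.1 FPKM in the elevated group. A difference of at least 1 in size was not enough for a call in 8 tested genes that were lower and 3 that were higher.

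Calls were compared within classes of level, because the chromosome holds so many low genes. From 1 to 10 FPKM, 52 of 404 tested genes fell (12.9%), against 8.53% of those elsewhere. From 10 to 100 FPKM the shares were 11.5% and 8.52%. At 100 FPKM and above 4 of 35 genes fell (11.4%), below the 13.6% of the other chromosomes. Rises made up 3.71%, 3.54% and 5.71% of the tested genes in these classes, against 2.13%, 2.54% and 2.27% elsewhere. On chromosome 8, the chromosome closest in gene density and level, 8.40% fell and 2.17% rose from 1 to 10 FPKM.

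Short loci carried many of the falls. In the quartile of tested genes with the shortest deposited loci (up to 2537 bp, bounds taken over all tested genes), 46 of 214 chromosome 5 genes fell (21.5%), against 13.6% elsewhere. In the longest quartile 12 of 196 fell (6.12%, 5.48% elsewhere) and 9 rose (4.59%, 0.697% elsewhere). Identifiers on chromosome 5 also departed more often from the usual numbering in steps of 100, with 507 genes (20.8%) whose identifier does not end in 00, against 14.8% elsewhere. Of these 507 genes 53.5% were listed at 0 in both groups. Among the 80 of them that were tested 15 fell (18.8%) and 0 rose, and on the other chromosomes 7.26% of such tested genes fell and 1.13% rose. Several of the 15 falls were neighbours, with 3 each in the runs from 56121269 and from 69997967 that are described below. The numbering was examined after the values had been seen, so these shares are a description only.

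Along the chromosome, genes crowded towards both ends. The outer 25% of the length on each side, called arms here by position alone, ended at 17.96 Mb and began at 53.9 Mb. They held 58.7 and 62.2 genes per Mb, and the 35.9 Mb between them held 264 genes, or 7.35 per Mb. The longest stretch with no listed gene ran from 46707395 to 50559425, which is 3.85 Mb.

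**Figure D3:**
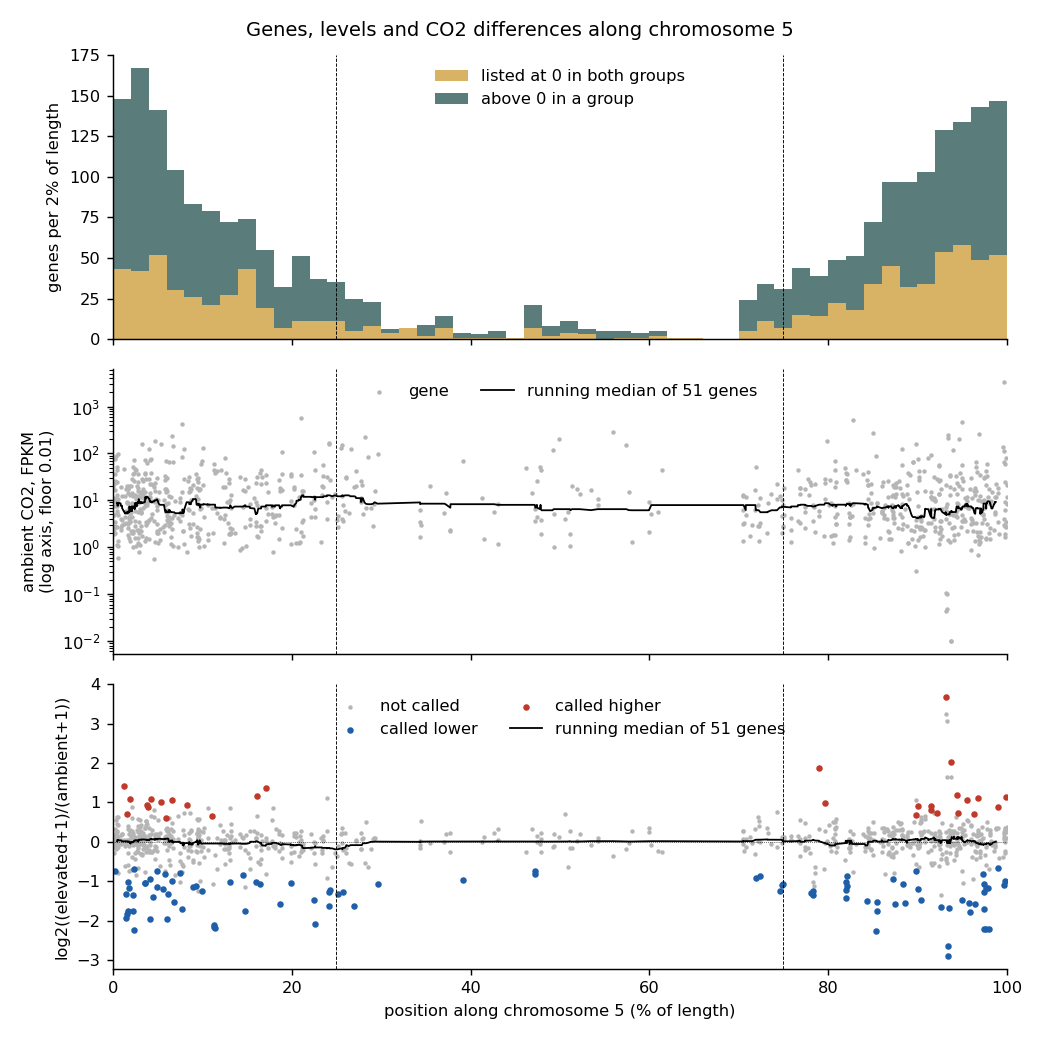
Position along chromosome 5 is given in percent of its length, with dashed lines at 25% and 75%; the panels show gene numbers, the ambient FPKM of expressed genes on a log axis, and log2((elevated + 1)/(ambient + 1)) with calls in colour. Genes were crowded at both ends, the running median of the log2 ratio over 51 genes stayed between -0.19 and 0.13, and no rise was called in the middle.

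Genes in the sparse middle were expressed at least as often as those of the arms. In the middle 40.9% of the genes were expressed, in the left arm 39.7% and in the right arm 32.6%. On the other chromosomes together the order differed, with 47.9% expressed in the middle, 51.7% in the left arm and 58.3% in the right arm. Chromosome 8 had the same order as chromosome 5, with 45.5% in the middle, 44.0% in the left arm and 43.7% in the right arm. The order was thus not particular to chromosome 5. The right arm of chromosome 5 had the largest share of such zeros among its regions: 429 of its 1117 genes (38.4%) were listed at 0 in both groups, compared with 16.5% of the genes in the right arms elsewhere. Median ambient levels of expressed genes were 8.71 FPKM in the left arm, 7.94 FPKM in the middle and 6.86 FPKM in the right arm.

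With this division the shares of falls in the middle and the arms lay close together. In the left arm 44 of 364 tested genes fell (12.1%), in the middle 12 of 98 (12.2%) and in the right arm 39 of 316 (12.3%). Rises numbered 13 in the left arm (3.57%), 0 in the middle and 16 in the right arm (5.06%). At the overall share of 2.42% the 98 tested genes of the middle would hold few rises in any case, so the 0 is given as a count. The share in both arms of chromosome 5 together was 4.26%. Elsewhere rises made up 1.83% of the tested genes in the middles and 2.42% in the arms. Single middles there ranged from 0 of 89 tested genes on chromosome 9 to 5 of 116 on chromosome 10. On the other chromosomes together 6.98% of tested genes fell in the middle, 8.31% in the left and 9.63% in the right arm. Their middles ranged from 2.40% on chromosome 3, below both its arms, to 9.94% on chromosome 4, between its arms. On chromosome 1 the shares also lay close together, at 9.20% in the left arm, 9.07% in the middle and 8.66% in the right arm. With the length divided into 3 equal parts, 7.50% of the 40 tested genes in the middle part fell (3 genes), against 12.5% of those outside it. Median log2 ratios were 0.00 in both the left arm and the middle, and 0.03 in the right arm. All 12 falls of the middle lay outside its emptiest core, since none of the 26 tested genes between 35 and 51 Mb was called.

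In windows of 5 Mb, the median log2 ratio of expressed genes ranged from -0.16 to 0.06. The lowest value came from 15 to 20 Mb, where 65.4% of 52 expressed genes had the lower value under elevated CO2 and 8 of 49 tested genes fell. In the first window, up to 5 Mb, 24 of 204 tested genes fell and 9 rose, and the median ratio was 0.04. From 65 to 70 Mb rises and falls were equal in number, at 10 each among 121 tested genes. The last window, from 70 Mb to the end at 71.8 Mb, had the highest share of calls, with 10 falls and 2 rises among 43 tested genes (27.9%). Over all 10 chromosomes the median of the 97 windows with at least 20 tested genes was 11.4%, and this window had the highest value. Since the chromosome was chosen by the same share, that place is a description only. Against all of its 191 listed genes the 12 calls came to 6.28%, which ranked 30 of the 97 windows, whose median on this base was 5%. On the same base the 9 windows of chromosome 5 with at least 20 tested genes ranged from 3.97% to 6.90%.

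The end window held sizeable falls close together. A gene at 70154297 to 70155269 was at 20.8 FPKM in the ambient and 3.65 FPKM in the elevated group (5.69-fold lower, q = 0.00112). Another, at 70394963 to 70399350, went from 17.1 to 2.91 FPKM (5.86-fold lower, q = 0.00112). At a higher level, the gene at 71612609 to 71617411 fell from 111 to 51.6 FPKM (q = 0.00112). The larger of the 2 rises, at 71754662 to 71757168, took a gene near the very end from 80.6 to 178 FPKM (2.21-fold, q = 0.00112). Calls in both directions thus reached well-expressed genes of this window. A gene at 71150930 to 71152417 rose from 14.1 to 27.0 FPKM (q = 0.0179). The gene at 70178431 to 70179460 fell from 42.3 to 18.3 FPKM, and that at 70279396 to 70284523 from 11.8 to 4.66 FPKM. Near the end, the genes at 71081226 to 71085052 and at 71677258 to 71679283 fell from 3.50 to 1.81 FPKM and from 6.32 to 2.67 FPKM. In this window the median of the 49 expressed genes was 9.55 FPKM in the ambient and 5.65 FPKM in the elevated group, while the median of their log2 ratios was 0.00. Strong differences in some genes thus stood beside many genes with none of that size.

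Next by share of calls among the windows with at least 20 tested genes, the one from 55 to 60 Mb held 8 falls and 2 rises among 56 tested genes (17.9%). Its larger rise, at 56746752 to 56756729, went from 4.72 to 19.9 FPKM (4.22-fold, q = 0.00112). A gene at 57219489 to 57220235 rose from 23.9 to 48.7 FPKM (q = 0.00633). Of the 8 falls, the 1 outside a run was that of a gene at 58879891 to 58882287, from 37.6 to 17.9 FPKM (q = 0.00502).

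Neighbouring falls were grouped into runs, defined as calls in the same direction that are adjacent or separated by no more than 1 annotated gene. Of the 95 falls 33 (34.7%) lay in runs, namely 8 pairs, 3 runs of 3 and 2 runs of 4 genes. On the other chromosomes the share of falls in runs went from 16.1% on chromosome 8 to 42.4% on chromosome 10. Runs of at least 3 held 17.9% of the falls of chromosome 5, against 0% to 15.3% elsewhere. This rests on 5 runs, of which 3 were counted at q under 0.01 and 3 when no other gene was allowed between members, and the other chromosomes were not recounted with these limits. Rises formed a single pair, at 65725532 to 65743868, whose members went from 14.9 to 26.8 FPKM and from 6.50 to 13.1 FPKM.

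Among runs of at least 3 genes, the one with the highest levels lay at the inner edge of the left arm, from 17345535 to 17412890. Its 3 adjacent genes went from 170 to 69.5 FPKM, from 159.9 to 50.9 FPKM and from 26.9 to 11.04 FPKM, falls of 2.44- to 3.14-fold (q of 0.00437 or less). The loci of the first and second of these genes spanned 693 and 516 bp. A run of 4 adjacent genes from 58925898 to 59011744 was even in level. Its ambient values lay between 25.1 and 36.7 FPKM and its elevated values between 9.38 and 19.5 FPKM, falls of 1.88- to 2.89-fold (q of 0.0238 or less).

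From 61340972 to 61380936, 3 adjacent genes fell by 3.70- to 5.07-fold. The first went from 87.06 to 17.2 FPKM, and the others from 8.75 to 2.37 FPKM and from 8.84 to 1.94 FPKM. Both of the lower genes had identifiers outside the steps of 100. A run across the 70 Mb boundary, from 69997967 to 70030091, held 4 falls among 5 annotated genes, with the remaining gene listed at 0 in both groups. In order of position its members fell 3.10-, 2.89-, 4.16- and 5.27-fold, and the last went from 30.05 to 5.71 FPKM.

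The run from 56121269 to 56265380 had uncalled neighbours with lower values under elevated CO2. Its 3 members fell from 21.4 to 8.01 FPKM, from 8.09 to 2.54 FPKM and from 7.41 to 2.55 FPKM. Beyond them lay a gene at 3.72 FPKM in the ambient and 1.31 FPKM in the elevated group (q = 0.0567), and then one at 7.27 and 2.80 FPKM (q = 0.109). Neither passed the authors' test, although their values were 2.84- and 2.59-fold lower. A gene between them was listed at 0 in both groups. Sequence likeness among the genes of a run was not tested, and reads that near-identical genes share would tie their values together.

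**Figure D4:**
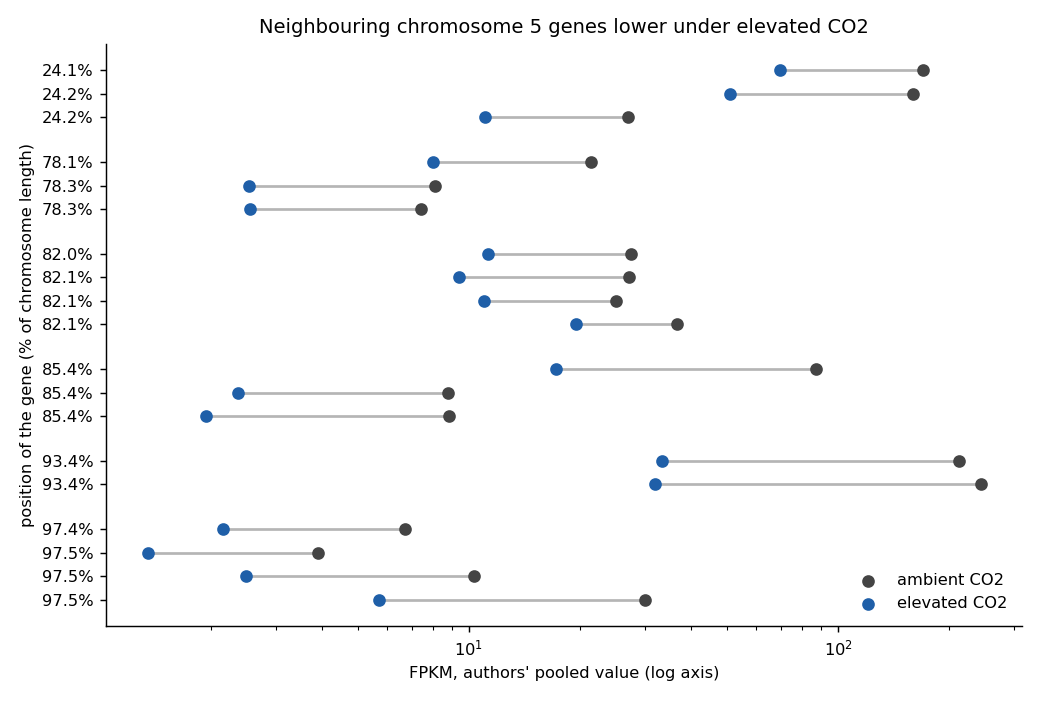
Each line joins the ambient and the elevated FPKM (log axis) of 1 gene, for the 5 runs of at least 3 falls and the pair with the largest falls; genes are labelled by position in percent of the chromosome's length. Every elevated value lies below its ambient value, and the widest gaps belong to the pair at 93.4%, at 212 and 243 FPKM in ambient CO2.

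The largest falls of the chromosome by this scale belonged to adjacent genes on the right arm. Sobic.005G186200 (67090883 to 67093068) had 243 FPKM in the ambient and 31.8 FPKM in the elevated group. This is 7.65-fold lower, or -2.90 on the log2 scale with the pseudocount (q = 0.00112 in the authors' deposited table). Sobic.005G186100 (67076368 to 67078233) had 212 FPKM in the ambient and 33.3 FPKM in the elevated group, 6.38-fold lower (log2 -2.64, q = 0.00112). In ambient CO2 both stood among the more abundant transcripts of the chromosome, and in elevated CO2 they remained above its median level.

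The largest rises lay on either side of that pair. Sobic.005G184700 (66965526 to 66966456) was at 0.0435 FPKM in the ambient and 12.3 FPKM in the elevated group, 3.67 on the log2 scale with the pseudocount (q = 0.0193). Sobic.005G189000 (67373728 to 67374693) was listed at 0 in ambient and at 3.05 FPKM in elevated CO2 (q = 0.00112), so no fold is given. It was the only called gene of the chromosome listed at 0 in a group.

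These rises had uncalled neighbours of the same kind, which were singled out after their values had been seen. Between 66923277 and 67374693, a stretch of 451 kb with 47 annotated genes, 8 genes had at most 0.108 FPKM in ambient CO2 and between 1.87 and 12.3 FPKM in elevated CO2. All 8 had short loci, of 822 to 998 bp. They include the 2 called rises, and the other 6 did not pass or were not tested. A gene at 66970092 to 66971018 was at 0.108 FPKM in the ambient and 9.43 FPKM in the elevated group, yet its q-value was 0.563. The gene at 67024040 to 67025037 had 0.102 and 8.21 FPKM in the same groups (q = 0.536). The other 4, between 0 and 0.0485 FPKM in the ambient and between 1.87 and 2.26 FPKM in the elevated group, were not tested.

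**Figure D5:**
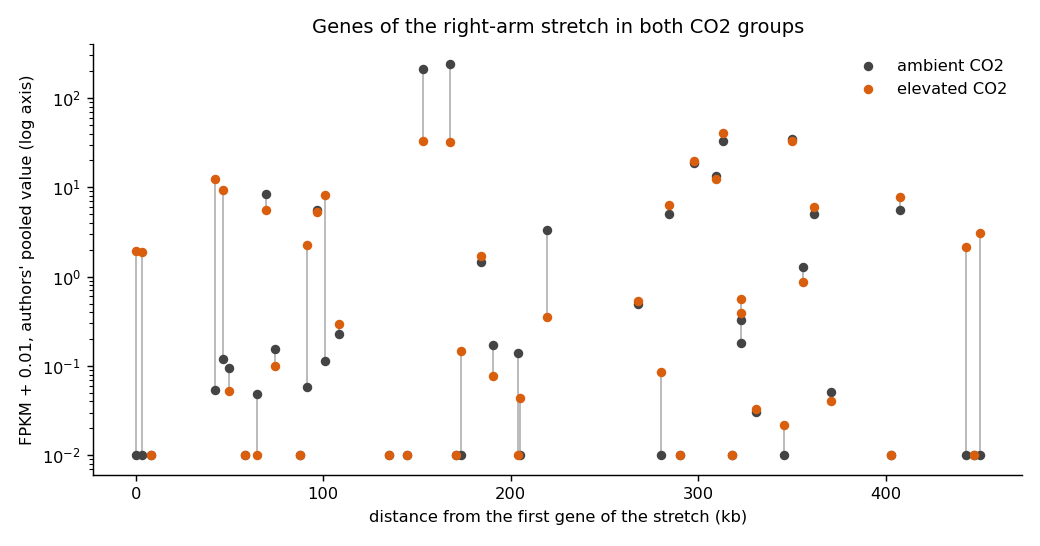
The 47 annotated genes of the 451 kb stretch are placed by distance from its first gene (kb), with FPKM + 0.01 on a log axis in ambient (dark) and elevated CO2 (orange). The 8 genes near or at 0 in ambient CO2 and above 1.8 FPKM in elevated CO2 lie on both sides of the pair that fell from above 200 FPKM. The first and last of these 8 genes set the ends of the stretch.

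Differences of that kind were rare elsewhere in the table. The stretch was bounded by the first and last of the 8 genes, and the limits below were set with their values known. The counts inside the stretch therefore follow from how it was drawn and are a description only. A log2 ratio of at least 1.5 with the pseudocount was shown by 9 genes of chromosome 5, 8 of them in this stretch, and by 31 genes on the other 9 chromosomes together. An ambient value under 0.2 FPKM with an elevated value of at least 2 FPKM occurred in 13 genes on the placed chromosomes, and 6 of these lay in the stretch. Of the 39 other genes of the stretch 25 had a mean below 1 FPKM, and 3 fell. Besides the pair described above, a gene at 67142794 to 67146249 went from 3.32 to 0.340 FPKM (9.78-fold lower, q = 0.0188). Among the other tested genes of the stretch none was called, and one of the highest, at 67273308 to 67278263, had 35.0 FPKM in the ambient and 33.2 FPKM in the elevated group (q = 0.957). Whether a single library supplied the elevated values of the 8 genes was not tested, because the table pools the libraries of a group. Sequence likeness among the 8 genes was not tested either, and reads that near-identical genes share would tie their values together.

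Genes listed at 0 in only 1 group were otherwise faint. On chromosome 5, 79 genes were listed at 0 in ambient CO2 only, with a median of 0.0419 FPKM in elevated CO2. Another 101 were listed at 0 in elevated CO2 only, none above 0.465 FPKM in ambient CO2. Together they made up 7.39% of the genes of chromosome 5 and 6.34% of those on the other chromosomes.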

How the data were processed

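RNA sequencing libraries were made from prop roots, 4 per CO2 group. Per the submitters' processing notes, Cuffdiff, Cufflinks 2.2.1, HISAT2 and Trimmomatic 0.36 were used, with no settings listed. The sources used here name no genome build; the identifiers end in version 3.2. The authors deposited 1 FPKM value per gene and group, pooled over libraries. The authors also deposited a log2 ratio, a test statistic (a score), a p-value and a q-value per gene, and recomputed log2 ratios differed from theirs by at most 2.71e-05.

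Genes were placed by the midpoint of the deposited locus; whether starts count from 0 or 1 is not stated. Tested means that the authors ran their test; on chromosome 5 such genes had at least 2.16 FPKM in the higher group. Expressed means a mean of at least 1 FPKM, the pseudocount was 1 FPKM, and windows were 5 Mb. The scripts for runs, medians and regions were checked on simulated data with known answers. No significance test was computed here beyond the authors' own. Identified by name were the 2 rises and the 2 falls with the largest ratio; described by position were the 10 highest genes, calls listed at 0, runs of at least 3 and calls of the 2 most called windows among those with at least 20 tested genes. The stretch near 67 Mb, the gene beside a run and identifier numbering were chosen after their values were seen. Members, rules and gene sets were all chosen with earlier results of these data known. Of the identifiers of chromosome 5, 0 matched the RefSeq list of 32945 genes (Sorghum_bicolor_NCBIv3), so planned lists of photosynthesis, root and disease resistance genes have no result. Python 3.11.15, pandas 2.3.3 and SciPy 1.17.1 were used.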

Additional observations from a re-analysis of the deposited data

How the results depend on the processing

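Of 52 alternative values for 21 results, 41 stayed within the reported value's 95% interval, kept their call, or for counts lay within 1.5 times. Intervals (Wilson for shares, order statistics for medians) gave counting error over genes only. They took genes as independent, although 33 of the 95 falls lay in runs. Some alternatives could not have come out otherwise. Stricter limits cannot add to 0 runs of rises, and another pseudocount cannot reverse the direction of a gene. The tally is therefore a description and no measure of robustness. With q under 0.01 the share of tested genes called lower was 8.10% and higher 1.80%, and with a log2 ratio of at least 1 it was 9.77% and 1.80%, since both limits admit fewer genes. Runs of at least 3 falls numbered 3, not 5, at q under 0.01, and also 3 with no other gene allowed between members. With no filter on level, 34.3% of genes had the lower value under elevated CO2, as genes at 0 in both groups then count. With the middle set by gene density (35 to 51 Mb, 57 genes), 54.4% of its genes were expressed and 0 of 26 tested genes fell. The ratio of summed FPKM was 0.907 without the most abundant gene, an alternative added after the data were seen, as was leaving out identifiers not ending in 00 (11.5% lower, 4.15% higher). The rise of Sobic.005G184700 did not pass q under 0.01. The median log2 ratio of expressed genes was -0.02 from 5 FPKM upwards and 0.03 when centred on the other chromosomes, so its sign depends on these choices. No paired analysis was possible because libraries are pooled within each CO2 group in the only table used, which also prevented leaving out any replicate. Limits set by sequencing depth could not be examined, as depth is unknown.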
